A study of Gallus gallus with 9 samples.

Results

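The genes described here are the cyclins, the cyclin-dependent kinases (CDKs) and their inhibitors, and the genes named CDC, MCM, ORC or E2F, compared between 3 facial prominences of the chicken embryo. Members were taken by name. They are every gene whose single platform symbol is CCNA to CCNH, with or without digits, or CDK, CDKN, CDC, MCM, ORC or E2F followed by a digit. The rule uses names only, though it was set with earlier results of these data known. Each gene was represented by its probe set of highest mean signal. The rule gave 88 of the 13009 genes that have a probe set with a single symbol, and 170 of the 38439 probe sets tested. Of the 88 genes, 49 act in the cell cycle or in the licensing of replication, 4 are other cyclins and 13 are other CDKs. The remaining 22 carry such a name but act elsewhere or indirectly, such as CDC37, a partner of the chaperone HSP90, and CDC42EP3, an effector of the small GTPase CDC42.

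The study profiled normal, untreated facial tissue at Hamburger Hamilton stage 18 on Affymetrix chicken arrays, asking how expression differs between prominences that have formed but not yet made cartilage, bone or muscle. Embryos were kept at 38 °C, and each of 9 arrays carried labelled cRNA from 500 ng of RNA of a single pool of 26 to 32 dissected pieces. There were 3 pools of the mandibular prominence (the lower jaw primordium), 3 of the maxillary prominence (the side of the upper jaw) and 3 of the frontonasal mass (the midline of the upper face). The pieces hold mesenchyme together with epithelium, and the labels give the genotype as unknown. Each value is thus an average over many embryos and over both tissues.

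Cyclins bind and activate CDKs, and successive cyclins carry a cell through the cycle: D cyclins with CDK4 or CDK6 and E cyclins with CDK2 in G1, A cyclins in S phase and B cyclins with CDK1 in mitosis. D cyclin kinases phosphorylate the retinoblastoma protein, which frees the E2F factors to switch on genes of DNA replication, while the CDKN proteins hold the kinases in check. Origins are licensed when the origin recognition complex (ORC) loads the MCM helicase, which CDC7 and CDC45 then help to fire, and the anaphase promoting complex later destroys cyclins and securin. Outgrowth of the facial prominences depends on proliferation of their mesenchyme.

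Signals are the deposited array intensities after scaling to a common median, and a signal counted as above background when it passed the 95th percentile of the 598 viral and reporter probe sets on its array, a level of 31.6 to 37.1. Differences are log2 ratios of signal plus 16, given with their standard error from a limma fit over the 9 arrays, and were called at an adjusted p under 0.05 over all probe sets. The 9 arrays were alike in brightness, with 49.2 to 53.3% of probe sets above background. The median correlation of each array with the others of its prominence was 0.979 to 0.987. Among marker lists, 4 of 6 facial mesenchyme genes and 7 of 7 measured epithelial genes were above background on every array. Of the other mesenchyme genes, LHX8 was below background on the frontonasal arrays and ALX4 on all 9. Frontonasal pool 2 stood apart in a list of 8 visceral organ genes, whose summed signal was 5293 there and 468 to 654 on the other 8 arrays. FGB (2292) and TTR (1699) made up most of that sum. ALB, at 55.8, lay within its range on the other arrays (19.0 to 63.5), and AHSG was below background on every array. Among the frontonasal pools, pool 2 also had the highest sums of endothelial (1125, against 652 and 645) and neuronal markers (1133, against 674 and 662). Frontonasal pool 1 had the highest GAPDH 3′ to 5′ ratio, 1.51 against 1.19 to 1.38 elsewhere, a measure of RNA degradation or incomplete copying. The same ratio of actin was highest on maxillary pool 1, at 2.46, and was 2.41 on frontonasal pool 1. The limma p-values set each difference against the spread between pools of the same prominence. With 3 pools against 3, an exact permutation p under 0.1 cannot be reached for a single gene.

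Few differences between the prominences were called among these genes. Of 88 members, 1 was called between the mandibular prominence and the frontonasal mass (1.14%, against 2.53% of all probe sets tested). None was called between the maxillary prominence and the frontonasal mass (background 2.25%), or between the mandibular and maxillary prominences (background 0.263%). The gene called was cyclin D3 (CCND3), which fell in the mandibular prominence (lower calls made up 1.35% of all probe sets). At an unadjusted p under 0.05 limma counted 9, 12 and 4 members in these 3 comparisons (10.2%, 13.6% and 4.55%). The shares of all probe sets were 13.5%, 14.0% and 7.11%, so those of members lay near or under the background. On all 9 arrays 78 members were above background, and 1.28%, 0 and 0 of these were called. Of the 8484 genes that passed the same filter, 4.51%, 3.98% and 0.554% were called. Unadjusted shares were 10.3%, 15.4% and 5.13% in these members and 17.8%, 19.1% and 8.18% in these genes. The F test over the 3 prominences called no member (background 2.64%) and had 12 at an unadjusted p under 0.05 (13.6%, against 13.9% of all probe sets).

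Intervals bound how large a difference in log2(signal + 16) the arrays could have missed. The 16 added shrinks the ratios of dim genes, so for members near background an interval within 1.5-fold is a weaker bound. The 95% interval of the difference lay within 1.5-fold for 69, 67 and 75 of the 88 members between mandibular and frontonasal, maxillary and frontonasal, and mandibular and maxillary pools, and within 2-fold for 84 members in each comparison (95.5%, against 92.9%, 93.0% and 95.2% of all probe sets). Over all probe sets tested, 67.3%, 66.8% and 72.7% had an interval within 1.5-fold, against 78.4%, 76.1% and 85.2% of members. Among the 78 members above background on all 9 arrays the shares were 83.3%, 79.5% and 91.0%, against 78.2%, 77.1% and 85.7% of the 8484 genes that passed the same filter. Within 2-fold they were 97.4%, 96.2% and 96.2%, against 95.1%, 95.3% and 97.6%. Signals did not overlap between the pools of the 2 prominences compared for 15, 15 and 9 members (17.0%, 17.0% and 10.2%), against 18.0%, 17.6% and 13.5% of all probe sets. With the filter the shares were 15.4%, 17.9% and 11.5% of members, against 22.7%, 23.0% and 16.2% of genes. The median difference over the 88 members was 0.05, 0.01 and -0.004 on the log2 scale, and that over all probe sets tested was 0.01, 0.00 and 0.00.

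Most members were well expressed. On all 9 arrays 78 of the 88 genes were above background, 7 passed on some arrays, and CDK3, CDK18 and CDKN2B on none. Among these 78 genes a difference of at least 0.25 (log2) was found in 12.8% between mandibular and frontonasal, 17.9% between maxillary and frontonasal and 8.97% between mandibular and maxillary pools. The shares among the 8484 genes that passed the same filter were 22.2%, 23.9% and 12.3%. The filter keeps a gene only where it is above background everywhere, so both sets lack genes confined to a single prominence. No test of the gap between the shares was made.

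**Figure D1:**
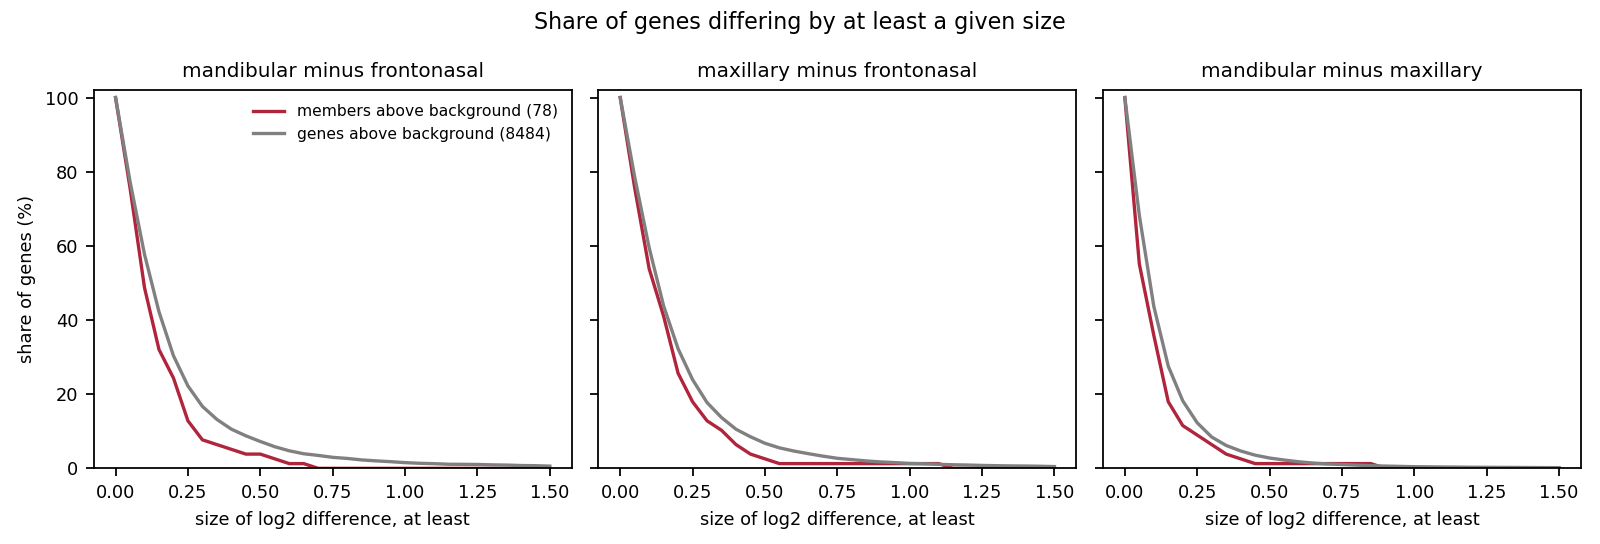
Share of genes (%) whose log2 difference is at least the size on the x axis, for the 78 members above background on all 9 arrays (red) and the 8484 genes of the array that passed the same filter (grey), in each of the 3 comparisons. At a size of 0.25 the members' curve lies at 12.8%, 17.9% and 8.97%, and the curve of all genes at 22.2%, 23.9% and 12.3%.

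The D and E cyclins of G1 held the single call. CCND3, a D cyclin that partners CDK4 and CDK6, had signals of 435, 544 and 613 in mandibular, 657, 534 and 537 in maxillary, and 832, 842 and 866 in frontonasal pools. All 3 frontonasal pools lay above all 6 pools of the other prominences, which overlapped each other. Mean signals were 531 ± 89.8 in the mandibular, 576 ± 70.3 in the maxillary and 847 ± 17.3 in the frontonasal pools (SD, n = 3 each). CCND3 fell by 0.67 on the log2 scale in the mandibular prominence relative to the frontonasal mass (standard error 0.13, adjusted p = 0.0388 from limma). As a ratio this is 0.628 with a 95% interval of 0.508 to 0.776. Between maxillary and frontonasal pools the difference was -0.55 ± 0.13 (adjusted p = 0.0907), which missed the threshold. Between mandibular and maxillary pools it was -0.12 ± 0.13, with an interval of -0.43 to 0.18.

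That call rests on little margin. It was lost, with adjusted p of 0.0925, 0.107, 0.0648, 0.0631, 0.104, 0.0811 and 0.108, when mandibular pool 1 or 2, maxillary pool 2 or 3, or frontonasal pool 1, 2 or 3 was left out. It held without mandibular pool 3 or maxillary pool 1. It was also lost with a pseudocount of 1 (adjusted p = 0.0956), in a fit to the 6 arrays compared (0.0847) and with the mean over both probe sets (0.271). A block for the replicate number, which the labels do not use to pair pools, lost the call too. The values come from a probe set whose name ends in _s_at, the maker's mark for probes that match more than 1 transcript. The gene's other probe set was below background on every array. Summed signals of 7 forebrain and neural progenitor markers ran the same way as CCND3, at 183 to 205 in the mandibular, 213 to 328 in the maxillary and 777 to 1120 in the frontonasal pools. Of the 7 genes, 5 were called lower in mandibular and 4 in maxillary pools. SOX2 ran the other way, with a difference of 0.55 relative to the frontonasal mass in both comparisons, and was not called. None of the 7 was above background on all 9 arrays. Summed signals of 6 mesenchyme markers ran the other way, at 3609 to 3885, 4100 to 5120 and 1435 to 1634 in the same order. LHX8, PRRX1 and MSX1 were called higher in mandibular than in frontonasal pools, and LHX8 and PRRX1 in maxillary pools. TWIST1 and PDGFRA were not called, with mandibular minus frontonasal differences of 0.11 and -0.29, and ALX4 was below background. Summed signals of 7 epithelial markers were 7001 to 7484, 5846 to 6728 and 8298 to 9615 in the mandibular, maxillary and frontonasal pools. The epithelial genes were split. Relative to the frontonasal mass 2 were called lower in mandibular and 4 in maxillary pools. KRT14 was called higher in both, by 0.93 and 0.71. Erythroid sums of 3 genes were 7363 to 8423, 7570 to 9683 and 9536 to 10010 in the mandibular, maxillary and frontonasal pools. SLC4A1 was called lower in mandibular than in frontonasal pools (-0.87), while HBZ and HBAD were not called (-0.29 and -0.32). Endothelial sums were 1788 to 1855, 1335 to 1523 and 645 to 1125, and neuronal sums 1208 to 1307, 551 to 581 and 662 to 1133. The part of tissue make-up in the CCND3 difference was not tested, and in pooled tissue fewer cells of a type and less RNA per cell cannot be told apart.

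The other G1 cyclins gave no call. Of all 5 G1 cyclins 2, 1 and 3 had intervals within 1.5-fold in the 3 comparisons, so differences of that size are less well bounded here than in the other cyclins. CCND1, the D cyclin that many growth factor pathways induce, had signals of 774, 742 and 879.7 in mandibular, 937, 1077 and 1045 in maxillary, and 916, 646 and 874 in frontonasal pools. The maxillary pools lay above the mandibular and frontonasal pools, which overlapped. The differences were 0.34 ± 0.14 between maxillary and frontonasal pools (adjusted p = 0.331) and -0.35 ± 0.14 between mandibular and maxillary pools (adjusted p = 0.643). A second CCND1 probe set had 629.6, 597 and 730.02 in mandibular, 786, 842 and 717 in maxillary, and 557, 514 and 710.3 in frontonasal pools. Its maxillary minus frontonasal difference was 0.40 ± 0.14 (adjusted p = 0.228). CCND2, the third D cyclin, had 1031, 1126 and 1216 in mandibular, 973, 1020.4 and 1076 in maxillary, and 958, 842 and 1105 in frontonasal pools. Its mandibular minus frontonasal difference was 0.22 ± 0.11 (interval -0.04 to 0.48). Between mandibular and maxillary pools it was 0.13 ± 0.11. On a further CCND2 probe set the mandibular pools (919 to 1004) lay above all maxillary and frontonasal pools (788.8 to 885.5). Its differences were 0.21 ± 0.08 and 0.23 ± 0.08 in these comparisons (adjusted p = 0.295 and 0.518). A dimmer CCND2 probe set differed by 0.68 ± 0.15 between mandibular and maxillary pools, without overlap (adjusted p = 0.203). It differed by 0.33 ± 0.15 between mandibular and frontonasal pools (adjusted p = 0.393).

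The E cyclins drive entry into S phase with CDK2, and neither was called. CCNE2 had signals of 419, 164 and 478 in mandibular, 275, 334 and 443 in maxillary, and 343, 159 and 510.2 in frontonasal pools. Pool 2 was low in the mandibular and frontonasal groups, and each group spanned much of the range of the others. Its standard error of 0.47 was the highest of any member, and its mandibular minus frontonasal interval of -0.997 to 1.14 spans about a 2-fold difference in either direction. A second CCNE2 probe set did not show the low pools, with 281, 283 and 311 in mandibular, 286, 259 and 276 in maxillary, and 237, 289 and 272 in frontonasal pools. Its mandibular minus frontonasal difference was 0.13 ± 0.09 (adjusted p = 0.639). CCNE1 had 79.8, 119 and 83.1 in mandibular, 91.97, 97.2 and 89.5 in maxillary, and 53.9, 80.8 and 117 in frontonasal pools. On this probe set all its intervals spanned 0. On another, mandibular pools (52.7 to 77.8) lay above frontonasal pools (34.8 to 49.8), with a difference of 0.36 ± 0.17 (adjusted p = 0.411). A further CCNE1 probe set differed by 0.04 ± 0.17. The last, below background on every array, had an interval of 0.10 to 0.85 (adjusted p = 0.241).

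The cyclins of S phase and mitosis gave no call. All 5 genes of this group, CCNA1, CCNA2, CCNB1, CCNB3 and CCNF, had intervals within 1.5-fold in all 3 comparisons. CCNB1, which activates CDK1 at the entry into mitosis, had signals of 3296, 2832 and 3024 in mandibular, 3474, 2982 and 2783 in maxillary, and 3213, 3430.3 and 3393 in frontonasal pools. Its differences were -0.13, -0.12 and -0.01 between mandibular and frontonasal, maxillary and frontonasal, and mandibular and maxillary pools. CCNA2, the A cyclin of dividing body cells, had 939, 888 and 1047 in mandibular, 930.3, 992 and 1053 in maxillary, and 996, 853 and 1238 in frontonasal pools. Its differences were -0.09, -0.04 and -0.05 in the same order. CCNB3 differed by -0.10, -0.08 and -0.02. CCNA1, the A cyclin known from the germ line in mammals, was dim and had 69.7, 74.3 and 66.2 in mandibular, 53.3, 60.8 and 46.7 in maxillary, and 64.2, 73.96 and 62.9 in frontonasal pools. Its maxillary pools lay below the mandibular and frontonasal pools, with a mandibular minus maxillary difference of 0.31 ± 0.10 (adjusted p = 0.48).

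Of the catalytic partners, CDK1 and CDK6 were above background on all arrays and CDK3 on none. Their intervals lay within 1.5-fold for 2, 3 and 2 of the 3 genes. CDK3 is counted in each comparison, but below background its interval does not bound its difference. CDK1, the mitotic kinase, had 3499, 3096 and 3251 in mandibular, 3613, 3228 and 3112 in maxillary, and 3269, 3479.5 and 3513 in frontonasal pools. Pools of all prominences overlapped. Its differences were -0.06 ± 0.09, -0.05 ± 0.09 and -0.01 ± 0.09, and the interval of the first was -0.26 to 0.14. CDK6, a partner of the D cyclins, had 56.6, 73.3 and 58.3 in mandibular, 65.8, 98.1 and 77.2 in maxillary, and 86.5, 56.3 and 100.1 in frontonasal pools. All prominences overlapped, and the mandibular minus frontonasal difference was -0.28 ± 0.19 (interval -0.72 to 0.16).

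None of the 6 CDK inhibitors was called, and 2, 5 and 4 of them had intervals within 1.5-fold between mandibular and frontonasal, maxillary and frontonasal, and mandibular and maxillary pools. CDKN1B (p27), which holds cells out of the cycle, had 452, 487 and 568 in mandibular, 441, 428 and 488 in maxillary, and 420.4, 478 and 457 in frontonasal pools. CDKN1A (p21), a target of p53, had 127, 121 and 189 in mandibular, 149.98, 126 and 183 in maxillary, and 148, 161 and 188 in frontonasal pools. For both genes the pools overlapped in every comparison, with mandibular minus frontonasal intervals of -0.10 to 0.38 and -0.60 to 0.23. CDKN2A, the INK4a/ARF gene of mammals, was close to background, at 40.02, 42.6 and 37.96 in mandibular, 38.1, 49.3 and 64.6 in maxillary, and 53.03, 61.8 and 61.8 in frontonasal pools. All 3 mandibular pools lay below all 3 frontonasal pools, with a difference of -0.41 ± 0.14 that missed the threshold (adjusted p = 0.223). CDKN3, a phosphatase that acts on CDKs, differed by 0.03, 0.05 and -0.02 between mandibular and frontonasal, maxillary and frontonasal, and mandibular and maxillary pools. CDKN2C was above background on 8 of 9 arrays and differed by 0.27 ± 0.24, 0.05 ± 0.24 and 0.22 ± 0.24. CDKN2B passed on none. CDC25A, the phosphatase that removes inhibitory phosphates from CDKs, had 116, 151 and 142 in mandibular, 136, 137 and 128 in maxillary, and 101, 144 and 144 in frontonasal pools. Its mandibular minus frontonasal interval was -0.25 to 0.40. Of the 3 CDC25 and CDC14 phosphatases measured, 2 had intervals within 1.5-fold in each comparison, but only 1 of the 3 was above background on every array.

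**Figure D2:**
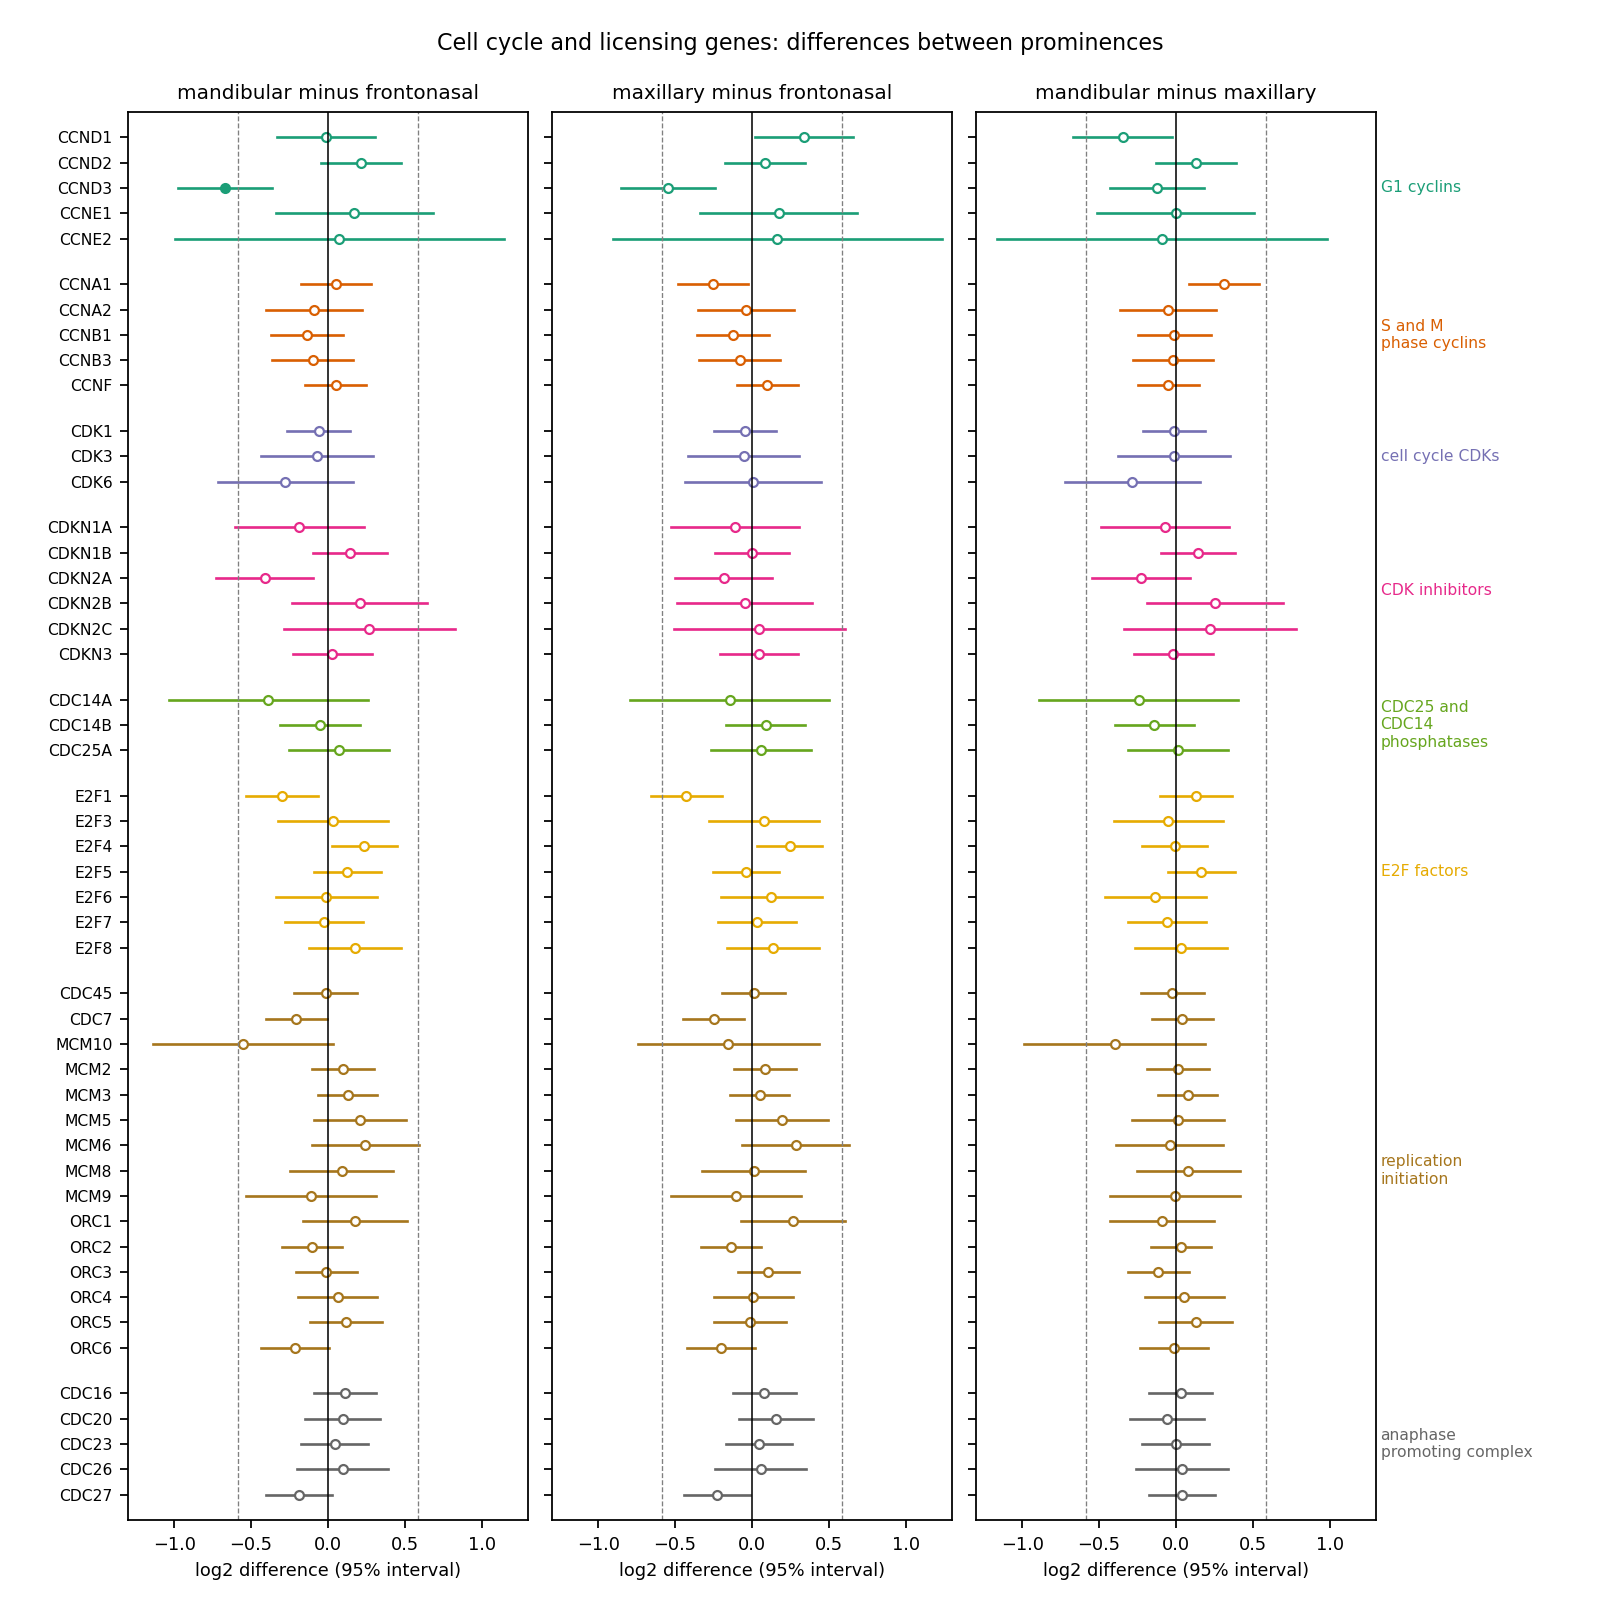
Log2 difference (points) with its 95% interval (lines) for the 49 members with a cell cycle or licensing role, by role, in the 3 comparisons, where filled points mark a call at adjusted p under 0.05 and dashed lines a 1.5-fold difference. CCND3 is the filled point, at -0.67 between mandibular and frontonasal pools, and CCNE2 has the widest intervals, with a standard error of 0.47.

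Among the E2F factors, which bind the promoters of S phase genes, E2F1 stood nearest to the threshold. E2F1, an activator, had signals of 549, 583 and 696 in mandibular, 568, 515 and 580.4 in maxillary, and 775, 739 and 736 in frontonasal pools. All 3 frontonasal pools lay above the other 6 pools, as for CCND3. The differences of -0.30 ± 0.10 between mandibular and frontonasal pools (adjusted p = 0.232) and -0.43 ± 0.10 between maxillary and frontonasal pools (adjusted p = 0.0853) missed the threshold. With a pseudocount of 64 the second passed it, at 0.0497. Between mandibular and maxillary pools the difference was 0.13 ± 0.10. The summed neural progenitor markers given beside CCND3 were also highest in the frontonasal pools. They were lower in mandibular than in maxillary pools, whereas the E2F1 signals of those pools overlapped. The part of these markers' cells in the E2F1 values was not tested.

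None of the other 6 E2F factors was called. E2F4, which acts mostly as a repressor with the pocket proteins, had 249, 255 and 238 in mandibular, 259, 256 and 233 in maxillary, and 212, 185 and 228 in frontonasal pools. Its frontonasal pools were the lowest, without overlap, and its differences were 0.24 ± 0.09 and 0.25 ± 0.09 relative to the frontonasal mass (adjusted p = 0.312 and 0.282). E2F7 and E2F8, repressors that do not need a DP partner, had mandibular minus frontonasal differences of -0.03 ± 0.11 and 0.17 ± 0.13. Their maxillary minus frontonasal differences were 0.03 ± 0.11 and 0.14 ± 0.13. E2F5 and E2F6, also repressors, differed by 0.13 and -0.01 between mandibular and frontonasal pools and by -0.04 and 0.13 between maxillary and frontonasal pools. E2F3, an activator, was dim and passed background on 8 of 9 arrays, with differences of 0.03 ± 0.16, 0.08 ± 0.16 and -0.05 ± 0.16. Of the 7 factors, 7, 6 and 7 had intervals within 1.5-fold in the 3 comparisons.

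**Figure D3:**
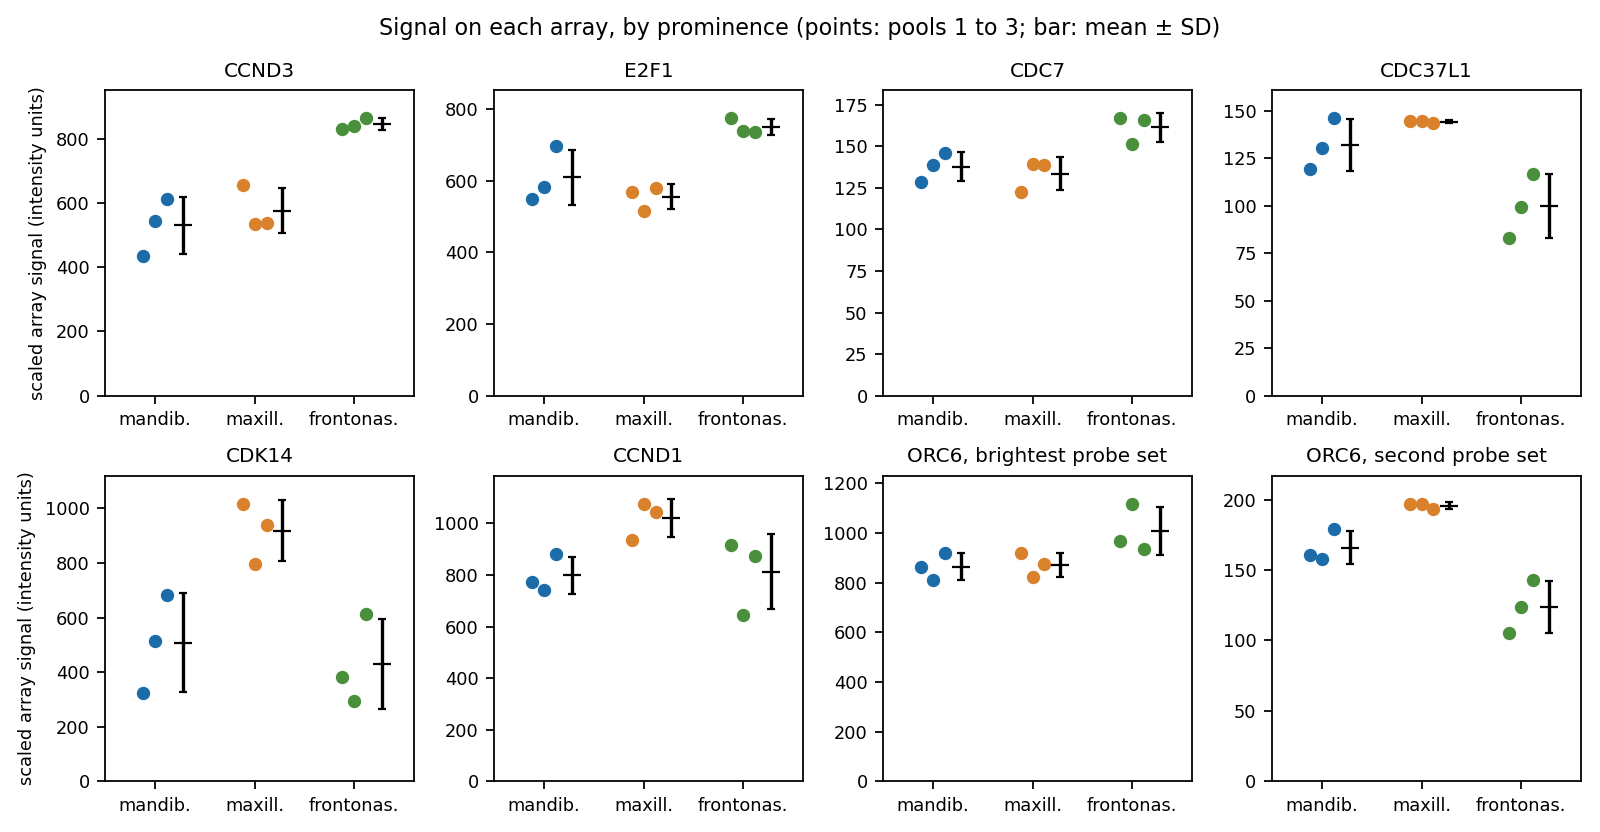
Scaled signal (intensity units) on each array for CCND3, E2F1, CDC7, CDC37L1, CDK14, CCND1 and both probe sets of ORC6, with points for pools 1 to 3 of each prominence and bars for mean ± SD. The frontonasal pools lie above all others for CCND3 (832 to 866), and the 2 ORC6 probe sets rank the frontonasal pools in opposite ways.

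The 15 genes of replication initiation were all above background on every array, and none was called. Their median differences were 0.06, 0.01 and 0.01, and 13, 12 and 14 of them had intervals within 1.5-fold between mandibular and frontonasal, maxillary and frontonasal, and mandibular and maxillary pools. The group counts MCM8 and MCM9, known mainly from DNA repair, by name. The helicase subunits MCM2, MCM3, MCM5 and MCM6 were measured. MCM2 had 1922, 1893 and 2012 in mandibular, 2114, 1852 and 1826 in maxillary, and 1708, 1825 and 1925 in frontonasal pools. MCM5 had 1251, 1133 and 1372 in mandibular, 1331, 1205 and 1184 in maxillary, and 904, 1102 and 1261 in frontonasal pools. In both genes the pools of the 3 prominences overlapped, with mandibular minus frontonasal differences of 0.10 ± 0.09 and 0.21 ± 0.13. MCM3 differed by 0.13 ± 0.08 and MCM6 by 0.24 ± 0.15 in that comparison, and by 0.05 ± 0.08 and 0.28 ± 0.15 between maxillary and frontonasal pools. CDC45, the helicase cofactor, had 1942, 2006 and 2018 in mandibular, 2098, 2047 and 1924 in maxillary, and 1836, 1978 and 2229 in frontonasal pools. Its differences were -0.01, 0.01 and -0.02.

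CDC7, the kinase that fires licensed origins, had 129, 139 and 146 in mandibular, 122, 139.6 and 139 in maxillary, and 167, 152 and 166 in frontonasal pools. The frontonasal pools were the highest, without overlap, and the differences of -0.21 ± 0.09 and -0.25 ± 0.09 relative to the frontonasal mass missed the threshold (adjusted p = 0.346 and 0.241). MCM10, which joins the helicase at firing, was dim and had 70.9, 70.6 and 69.1 in mandibular, 142, 100.1 and 63.7 in maxillary, and 131, 76.6 and 132 in frontonasal pools. Its 3 mandibular pools were alike while the maxillary and frontonasal pools spread widely, and the mandibular minus frontonasal difference of -0.55 ± 0.26 had an interval of -1.14 to 0.04.

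No ORC subunit was called on the probe set that stands for its gene, and the probe sets of ORC6 disagreed. ORC1, the subunit whose level varies over the cycle in human cells, had 369, 417 and 431 in mandibular, 485, 475 and 350.5 in maxillary, and 323, 337 and 418 in frontonasal pools. ORC2, a core subunit, had 894, 912 and 1002 in mandibular, 915, 873 and 951 in maxillary, and 977, 963 and 1079 in frontonasal pools. The mandibular minus frontonasal differences of ORC1 to ORC5 were 0.17 ± 0.15, -0.10 ± 0.08, -0.01 ± 0.09, 0.06 ± 0.11 and 0.12 ± 0.10. Their maxillary minus frontonasal differences were 0.26, -0.14, 0.10, 0.01 and -0.01. ORC6 had 863, 811 and 919 in mandibular, 919, 821 and 877 in maxillary, and 969, 1119 and 936 in frontonasal pools on its brightest probe set. All frontonasal pools lay above the other 6 there, with differences of -0.22 ± 0.10 and -0.20 ± 0.10 relative to the frontonasal mass (adjusted p = 0.382 and 0.404).

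A second ORC6 probe set ran the opposite way. It had 161, 158 and 179 in mandibular, 197, 197 and 193 in maxillary, and 105, 123 and 143 in frontonasal pools. The frontonasal pools were the lowest. There ORC6 rose by 0.61 ± 0.11 in the maxillary prominence relative to the frontonasal mass (adjusted p = 0.0255). The mandibular minus frontonasal difference was 0.39 ± 0.11 (adjusted p = 0.13). Leaving out any of the 3 maxillary pools or frontonasal pool 1 or 2 raised the adjusted p to between 0.0551 and 0.0956. The call was also lost with a pseudocount of 1 (adjusted p = 0.0717) and in a fit to the 6 arrays compared (0.0861). With the 2 probe sets disagreeing, no direction can be given for ORC6 as a gene.

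Between maxillary and frontonasal pools 2 of the 82 further probe sets of members were called (2.44%, against 2.25% of all probe sets). Both were higher in maxillary pools (background 0.911% higher). Besides that of ORC6, the other belonged to CDC5L, a splicing factor named after a yeast cell cycle gene and singled out after its values were seen. That probe set had 80.1, 66.2 and 81.4 in mandibular, 119, 73.4 and 88.02 in maxillary, and 42.6, 36.9 and 45.8 in frontonasal pools. It lay near background in the frontonasal pools, with a difference of 0.90 ± 0.15 (adjusted p = 0.0211). The call was lost without maxillary pool 3 or frontonasal pool 1 or 2, with adjusted p of 0.0639, 0.0641 and 0.0612, and in the fit to 6 arrays (0.075). The brightest CDC5L probe set differed by 0.14 ± 0.12 in the same comparison and another by -1.01 ± 0.35 (adjusted p = 0.23), so the probe sets of CDC5L also disagreed. Over these 82 probe sets none was called in the other 2 comparisons, where 11 (mandibular and frontonasal) and 7 (mandibular and maxillary) had an unadjusted p under 0.05.

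The anaphase promoting complex and its activator CDC20 gave no call. All 5 genes, CDC16, CDC20, CDC23, CDC26 and CDC27, had intervals within 1.5-fold in all 3 comparisons, with differences between -0.23 and 0.15. CDC20, which the complex needs at the onset of anaphase, had 1488, 1324 and 1354 in mandibular, 1538, 1455 and 1351 in maxillary, and 1150.4, 1303 and 1458 in frontonasal pools. The pools of the 3 prominences overlapped. Its differences were 0.09 ± 0.11, 0.15 ± 0.11 and -0.06 ± 0.11.

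The remaining cyclins and CDKs serve transcription, stress responses or other ends. The 4 other cyclins, CCNC, CCNG1, CCNG2 and CCNH, differed by 0.05 to 0.27 between mandibular and frontonasal pools and by 0.05 to 0.31 between maxillary and frontonasal pools, with no call. A further CCNC probe set differed by 0.32 ± 0.13 and -0.34 ± 0.13 in these comparisons (adjusted p = 0.322 and 0.277). Its mandibular minus maxillary difference was 0.66 ± 0.13 (adjusted p = 0.126). Another CCNC probe set differed by -0.07 ± 0.29, 0.02 ± 0.29 and -0.08 ± 0.29. Of the 13 other CDKs, 10, 10 and 11 had intervals within 1.5-fold in the 3 comparisons, and none was called. CDK14, a kinase that works with the membrane-bound cyclin CCNY in WNT signalling, had the widest difference of any member, with signals of 322, 516 and 684 in mandibular, 1018, 797 and 940.2 in maxillary, and 383, 293 and 614 in frontonasal pools. All 3 maxillary pools lay above all 6 others. The difference was 1.12 ± 0.31 between maxillary and frontonasal pools (adjusted p = 0.13, interval 0.42 to 1.83) and -0.89 ± 0.31 between mandibular and maxillary pools (adjusted p = 0.53). Neither passed the threshold. Mandibular pools spanned 322 to 684, and frontonasal pools 293 to 614. A second, dim CDK14 probe set had 32.98, 46.04 and 47.03 in mandibular, 56.3, 54.4 and 42.7 in maxillary, and 28.7, 38.2 and 32.9 in frontonasal pools. Its maxillary minus frontonasal difference was 0.44 ± 0.13 (adjusted p = 0.17). CDK15, a related kinase above background on 5 of 9 arrays, had 37.6, 50.8 and 62.8 in mandibular, 33.7, 36.8 and 57.5 in maxillary, and 27.3, 33.6 and 27.6 in frontonasal pools. Its mandibular minus frontonasal difference was 0.53 ± 0.18 (adjusted p = 0.229).

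Among the 22 genes that carry such a name but act elsewhere or indirectly none was called, and 17, 15 and 18 had intervals within 1.5-fold. CDC37, which delivers kinases such as CDK4 to HSP90, had 302, 316 and 381 in mandibular, 373, 358 and 335 in maxillary, and 532, 385 and 527 in frontonasal pools. The frontonasal pools lay above the others, pool 2 by the least. The mandibular minus frontonasal difference of -0.50 ± 0.14 (adjusted p = 0.136) became -0.65 with an adjusted p of 0.0283 without frontonasal pool 2. That was the only 1 of 18 alternative fits past the threshold, and the adjusted p reached 0.617 in another. A second, dim CDC37 probe set differed by 0.09. CDC37L1, its relative, ran the other way, with 119.6, 130.3 and 146 in mandibular, 145, 145 and 143 in maxillary, and 83.2, 99.7 and 117 in frontonasal pools. Its maxillary minus frontonasal difference was 0.48 ± 0.12 (adjusted p = 0.0915). Over 18 alternative fits it ran from 0.04 to 0.58, and the adjusted p from 0.0457 to 0.9, with 1 past the threshold. CDC42EP3 had 155, 189 and 197 in mandibular, 115, 133 and 142 in maxillary, and 93.4, 373 and 145 in frontonasal pools. The single high value was that of frontonasal pool 2, the array on which the visceral organ list summed to 5293. All mandibular pools lay above all maxillary pools, with a difference of 0.43 ± 0.39 (adjusted p = 0.943). That standard error is pooled over the 9 arrays, the high pool included. Without frontonasal pool 2 the same difference had an adjusted p of 0.566. The part of that pool's other RNA in the CDC42EP3 value was not tested. CDC42EP2, another CDC42 effector, was above background on 3 of 9 arrays and is named for its wide differences, after its values were seen. It had 19.3, 19.5 and 22.4 in mandibular, 68.1, 22.3 and 22.1 in maxillary, and 51.9, 68.2 and 23.7 in frontonasal pools. The mandibular pools were all below background, so the fitted mandibular minus frontonasal difference of -0.75 ± 0.35 (adjusted p = 0.404) does not measure its size.

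The members also varied between pools of a single prominence. Relative to each gene's mean over the 9 arrays, the median of the 78 genes above background was -0.11 on frontonasal pool 1, which had the highest GAPDH ratio, and 0.08 on frontonasal pool 3, and between -0.05 and 0.08 on the other 7 arrays. The 5 G1 cyclins had medians of -0.29 on frontonasal pool 2 and 0.35 on frontonasal pool 3. The 15 replication genes ran from -0.12 on frontonasal pool 1 to 0.10 on frontonasal pool 3, a wider span than their median differences between prominences of 0.06, 0.01 and 0.01. The part of RNA quality in the pool 1 values was not tested.

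**Figure D4:**
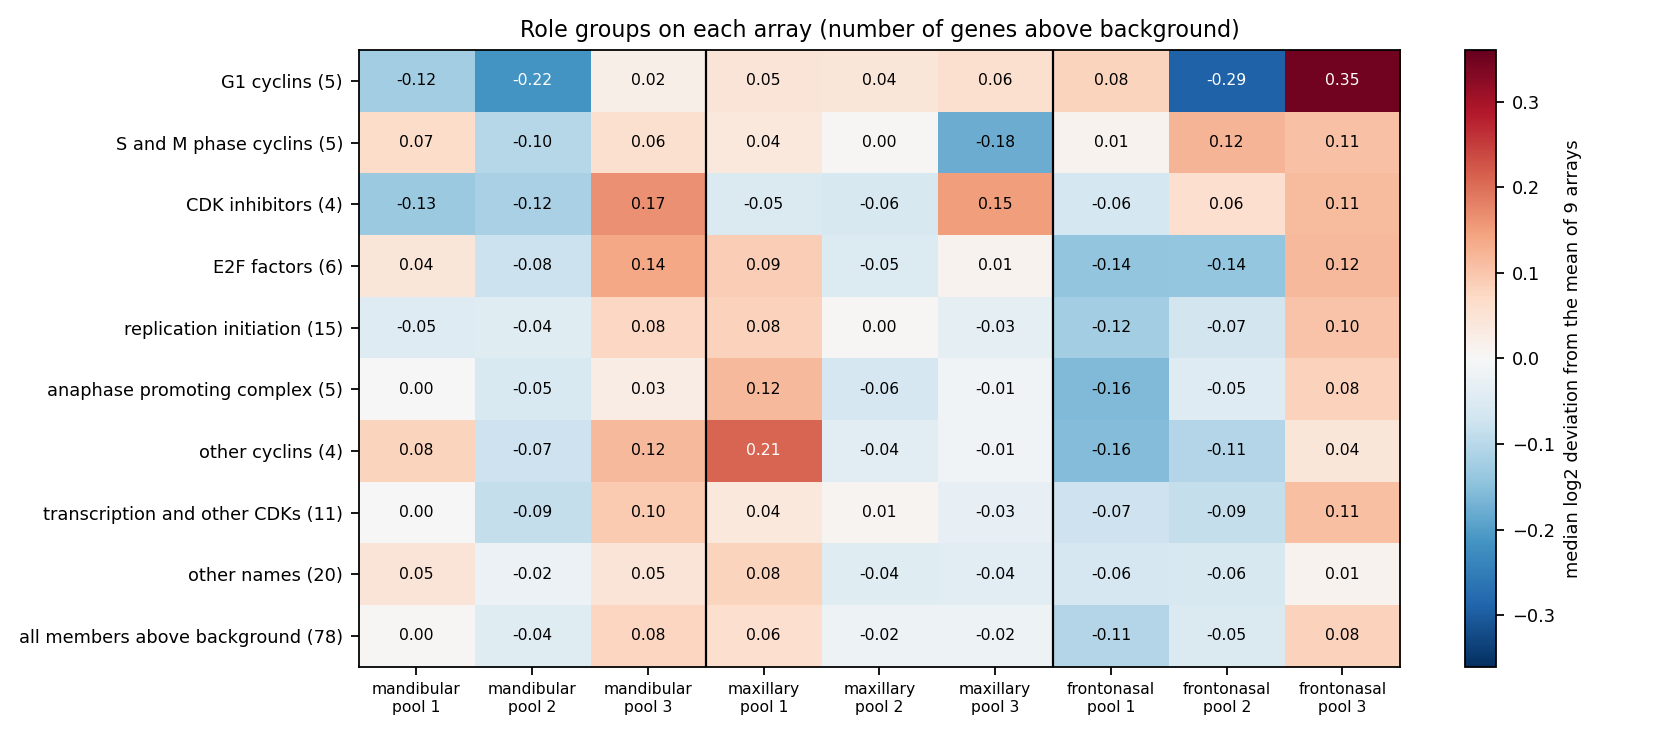
Median log2 deviation from the mean of the 9 arrays (colour and number) for role groups with at least 4 genes above background, with the number of genes in brackets and a column per array. Frontonasal pools 1 and 3 lie at -0.11 and 0.08 over all 78 genes, and the G1 cyclins range from -0.29 to 0.35 between frontonasal pools 2 and 3.

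Genes of the same processes that the name rule does not take were also counted. From a list of 95 genes of replication, the retinoblastoma pathway, mitosis and growth arrest, 78 were measured, and 1, 1 and 0 were called between mandibular and frontonasal, maxillary and frontonasal, and mandibular and maxillary pools (1.28%, 1.28% and 0, against 2.53%, 2.25% and 0.263%). At an unadjusted p under 0.05 limma counted 5, 8 and 1 (6.41%, 10.3% and 1.28%, against 13.5%, 14.0% and 7.11% of all probe sets). ANLN, the actin-binding protein of the cleavage furrow, had 733, 782 and 709 in mandibular, 776, 802 and 753 in maxillary, and 1026, 919 and 1053 in frontonasal pools. It fell by 0.42 in the mandibular prominence relative to the frontonasal mass (standard error 0.08, adjusted p = 0.0375). The call was kept in 1 of 9 fits that left out an array, that without frontonasal pool 2. It was also lost without further scaling (adjusted p = 0.0581), with quantile normalization (0.0674), with a pseudocount of 1 (0.143), in the fit to 6 arrays (0.112) and with the mean over probe sets (0.0749). Counting every alternative, the ANLN call was kept in 4 of 18 fits. BTG2, an antiproliferative gene that p53 induces, had 433, 514 and 394 in mandibular, 367, 399 and 310.1 in maxillary, and 632, 872 and 642 in frontonasal pools. It fell by 0.96 in the maxillary prominence relative to the frontonasal mass (standard error 0.16, adjusted p = 0.0194). The call was lost without maxillary pool 1 or 3 (adjusted p = 0.0634 and 0.0695) and in the fit to 6 arrays (0.0597). The mandibular minus frontonasal difference of BTG2 was -0.65 ± 0.16 (adjusted p = 0.0835). Like CCND3, both genes were highest in the frontonasal pools, as were the summed neural progenitor markers. Among the frontonasal pools that sum was lowest in pool 2 (777, against 973 and 1120), where ANLN was lowest and BTG2 highest. BTG2 was also higher on average in mandibular than in maxillary pools, and the marker sum lower. Frontonasal pool 2 was the array on which the visceral organ list summed to 5293. The parts of tissue make-up and of that pool's other RNA in these values were not tested.

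The usual markers of dividing cells gave no call. PCNA, the sliding clamp of replication, had 2458, 2487 and 2750.5 in mandibular, 2867, 2600.4 and 2589 in maxillary, and 2325, 2387 and 2940.2 in frontonasal pools. MKI67, which codes for the Ki-67 antigen, had 2169, 1810.3 and 1924 in mandibular, 2066, 1862 and 1839.7 in maxillary, and 1998, 1910 and 1997 in frontonasal pools. In both genes the pools of the 3 prominences overlapped, and the intervals of the mandibular minus frontonasal difference were -0.23 to 0.26 and -0.21 to 0.21. TOP2A, the topoisomerase of mitotic chromosomes, differed by -0.09, -0.10 and 0.01 between mandibular and frontonasal, maxillary and frontonasal, and mandibular and maxillary pools. In the same order MYCN, a driver of proliferation in the neural crest lineage, differed by 0.03, 0.14 and -0.11. RB1, the retinoblastoma gene, differed by 0.04, -0.06 and 0.10, and its relative RBL1 by -0.18, -0.08 and -0.10. Of the 78 genes of this list, 75, 69 and 74 had intervals within 1.5-fold, compared with 78.2%, 77.1% and 85.7% of the 8484 genes above background on every array.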

How the data were processed

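The series holds 9 Affymetrix chicken arrays, 3 pools for each prominence. The deposited values are linear intensity per probe set, scaled before deposit by the authors, since their mean without the top and bottom 2% was 150.03 on every array. The sources used here name no software for that step. Arrays were scaled to a common median (factors 0.961 to 1.04), 96 control probe sets were left out, and log2(signal + 16) was fitted for 38439 probe sets by group with limma 3.58.1 in R 4.3.3, without a block, with Benjamini-Hochberg adjustment over all of them. The fit was tested on simulated data. Gene names came from the annotation of the array platform: 27168 had a single symbol, 177 several and 11094 none, and all 88 members matched the reference table by symbol. Of 49 panel genes, 39 were measured, and CCNB2, CDK2, CDK4, CDKN1C, CDC6, CDC25B, CDC25C, MCM4, MCM7, E2F2 and, on the other list, TFDP1 were not analysed here.

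Members and lists were chosen with earlier results of these data known. Genes named with values were members called, the 5 with the largest absolute log2 difference in each comparison among those above background on every array of at least 1 prominence, the panel, and on the other list the called genes and 7 set by name. Alternatives were the scaling, the pseudocount, a filter on dim probe sets, the prior, the arrays fitted, the replicate block and the mean over probe sets.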

Additional observations from a re-analysis of the deposited data

How the results depend on the processing

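Of 291 counts and medians recomputed under alternatives, 257 stayed within 1.5 times their value or within the spread, and 34 moved, all counts between 0 and 2. Members called between mandibular and frontonasal pools numbered 1, and 0 with a pseudocount of 1, in a fit to the 6 arrays compared, with the replicate block and with the mean over a gene's probe sets. Between maxillary and frontonasal pools the count was 0, and 1 without further scaling (CDC37L1, adjusted p = 0.0457) and with a pseudocount of 64 (E2F1). The F test called 0, and 1 without further scaling, with quantile normalization, without the dimmest 40% of probe sets and with an intensity trend in the prior. On the list of other cell cycle genes, the mandibular and frontonasal count of 1 was 0 without further scaling, with quantile normalization, with a pseudocount of 1 and in the 6-array fit, and 2 without the dimmest 40%, while the maxillary and frontonasal count of 1 was 2 with a pseudocount of 64, with the intensity trend and with the mean over probe sets, and 0 in the 6-array fit. Fits that left out 1 array gave 0 to 1 for the mandibular and frontonasal counts of both lists and for the maxillary and frontonasal count of the other list, and 0 for the other counts. For mandibular and frontonasal members, the fit without mandibular replicate 2 called CDC14A, chosen after its values were seen, and not CCND3. The fit without frontonasal replicate 2 called CDC37 and not CCND3. CCND3 was called without mandibular replicate 3 and without maxillary replicate 1. Averaging over probe sets turned the ORC6 differences between mandibular and frontonasal and between maxillary and frontonasal pools to 0.09 and 0.20 and gave CCND3 an adjusted p of 0.271.

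The replicate numbers do not pair the pools by the labels, and correlations of same-numbered deviations were 0.0166 to 0.12, although 9 of 9 arrays correlated best with their own number. With the replicate block 830, 684 and 47 probe sets were called, against 974, 866 and 101 without it, and CCND3 had an adjusted p of 0.0907. A pseudocount of 1 gave 602, 531 and 35, and the 6-array fits 613, 412 and 145. Fits without 1 array gave 526 (without mandibular replicate 2) to 1089 (without frontonasal replicate 2), 424 (without maxillary replicate 2) to 797, and 15 (without mandibular replicate 1) to 174 (without frontonasal replicate 2). Precision is limited by 3 pools a group, and dim genes by a background of 31.6 to 37.1.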
